A study of Mus musculus with 23 samples.

Results

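Public cells were lymph node (LN) T cells whose T-cell receptor (TCR) beta chain was read in more than 1 library. A cell counted as public when its droplet barcode held exactly 1 productive beta chain and the combination of V segment, J segment and amino acid sequence of complementarity-determining region 3 (CDR3) occurred in at least 2 of the 7 TCR libraries. Of the 28800 cells with exactly 1 productive beta chain, 1715 were public (5.95%). The other 27085 carried a chain read in 1 library and are called private. The public cells carried 745 of the 26898 different chains. Public cells were thus chosen by their measured beta chain sequences in all 7 libraries, so the sequence features of public chains follow in part from the rule and are given as a description with no test.

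The study put the leukemia-associated change Y665F, a tyrosine replaced by phenylalanine, into mouse Stat5b, the gene of a transcription factor that cytokine receptors activate. LN cells of mice aged 2 months (C57BL/6 in the labels, C57BL/6N in the study's methods) were run on droplet chips for expression and TCR libraries, 2 from wild-type (WT) mice, 3 from heterozygous (Y665F het) and 2 from homozygous (Y665F homo) mice. The change was made in zygotes with Cas9 and an oligonucleotide template and so was not limited to 1 cell type. The labels do not say whether each library came from 1 mouse or several, nor which were made together. A figure legend of the paper describes LN expression data of each group as a combined sample of several mice. The title of that figure and the matching text name the spleen instead. The paper does not tie the LN libraries to mice. A library may therefore hold cells of more than 1 mouse, a chain called private may have been present in several mice, and p-values measure the spread between libraries.

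A beta chain is built in the thymus, where the recombinase joins a V, a D and a J segment of the Trb locus. Nucleases trim the ends of the segments, and terminal transferase adds random bases between them. The junction is read as the CDR3, the loop that mostly contacts the peptide. A chain that needs few added bases can be made in many ways and in many animals, and such recurring chains are called public. Beta chains are paired with an independently recombined alpha chain, so animals that share a beta chain rarely share the whole receptor.

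The chains read in the most libraries are shown to let the inserted bases be seen. Each line is the coding strand of a CDR3, 5′ to 3′, with bases that the germline segments can account for in lower case and inserted bases in capitals. A D match of any length counted as germline, down to 1 base, so an added base that fits a segment is in lower case. Here and below, no inserted base means that every base could be matched, not that none was added. Germline segments were taken from the GENCODE vM21 annotation of GRCm38, where Trbv3 lies at chr6:41048290-41048828, Trbd1 at chr6:41533201-41533212, Trbd2 at chr6:41542163-41542176 and Trbj2-7 at chr6:41543810-41543856, all on the plus strand. The chain that joined TRBV3 to TRBJ2-7 was read in 6 of 7 libraries, the most of any chain, in 6 cells. An alpha chain was read in 5 of these cells, with 6 different alpha chains in all. Its 4 nucleotide sequences encode the same amino acids.
TRBV3 to TRBJ2-7, WT replicate 2: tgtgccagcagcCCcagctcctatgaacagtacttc
TRBV3 to TRBJ2-7, WT replicate 1: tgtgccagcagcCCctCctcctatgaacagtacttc
TRBV3 to TRBJ2-7, Y665F het replicates 1 and 2: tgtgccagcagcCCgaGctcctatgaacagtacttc
TRBV3 to TRBJ2-7, Y665F het replicate 3 and Y665F homo replicate 2: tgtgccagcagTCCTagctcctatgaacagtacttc

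This chain held 2 to 4 inserted bases in each of its sequences, more than most public chains. The next chain by number of libraries and cells needed at most 1. Its V segment has the joint label TRBV12-2+TRBV13-2 in the deposited tables (Trbv12-2 at chr6:41118851-41119364, Trbv13-2 at chr6:41121396-41121832). The chain was read in 4 libraries and 7 cells, in 5 nucleotide sequences, of which 2 contained no inserted base. These 2 and 1 of the others are shown.
TRBV12-2+TRBV13-2 to TRBJ2-7, Y665F het replicate 2 and Y665F homo replicate 1: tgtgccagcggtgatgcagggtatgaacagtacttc
TRBV12-2+TRBV13-2 to TRBJ2-7, WT replicate 1 and Y665F het replicate 3: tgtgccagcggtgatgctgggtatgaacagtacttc
TRBV12-2+TRBV13-2 to TRBJ2-7, Y665F homo replicate 1: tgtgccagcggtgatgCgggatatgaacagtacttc

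The same nucleotide sequence could also recur. A chain of Trbv1 (chr6:40891229-40891885) and Trbj1-1 (chr6:41533864-41533911) had no inserted base in 4 cells of 3 libraries, and a chain of Trbv2 (chr6:41047340-41047995) and Trbj1-3 (chr6:41534323-41534376) was identical, 1 inserted base included, in 4 cells of 4 libraries with 4 different alpha chains.
TRBV1 to TRBJ1-1, Y665F het replicates 1 and 3 and Y665F homo replicate 2: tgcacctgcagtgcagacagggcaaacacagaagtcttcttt
TRBV2 to TRBJ1-3, WT replicate 1, Y665F het replicates 2 and 3 and Y665F homo replicate 1: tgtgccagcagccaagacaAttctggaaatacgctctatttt

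Most sharing was between a pair of libraries. Of the 745 public chains, 671 were read in 2 libraries (1437 cells), 64 in 3 (226 cells), 9 in 4 (46 cells) and 1 in 6 (6 cells), and none was read in 5 or in all 7. The libraries held 181 and 304 public cells in WT, 214, 182 and 280 in Y665F het, and 299 and 255 in Y665F homo, among 2996 to 5985 cells with a single beta chain per library. Median support was between 10 and 13 unique molecular identifiers (UMIs, which count molecules) per beta chain in public cells of each library and between 10 and 12 in private cells. A droplet barcode was found in both of a pair of TCR libraries 463 times over the 21 pairs, between 9 and 36 times per pair. In 0 of these 463 did the barcode carry the same beta sequence or chain in both, and 72 public cells had a barcode that also occurred in another TCR library.

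Public chains were short and close to germline. Among distinct nucleotide sequences, those of chains read in 1 library had a mean of 3.32 inserted bases, against 1.58 just inside the threshold, in chains read in 2 libraries, 1.11 in chains read in 3 and 1.57 in chains read in 4 or more. Sequences with no inserted base made up 10.5% of private sequences, 32.2% of those in 2 libraries, 40.4% of those in 3 and 29.7% of the 37 sequences in 4 or more. At the other end, 6 or more inserted bases were found in 16.6% of private and in 1.63% of public sequences. The mean CDR3 measured 41.7 bases in private and 40.0 bases in public chains. TRBV10 cells, 4.47% of all and 100 of the public cells, were left out of the counts of inserted bases because the annotation held no matching germline segment for them.

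The difference was of like size in each library. Public cells had on average 1.89 ± 0.0721 fewer inserted bases than private cells of the same library (SD, n = 7, difference of -2.01 to -1.82). The groups did not overlap, since the highest public mean was 1.62 and the lowest private mean 3.20 inserted bases per cell. The rule matched sequences and each public chain counts in at least 2 libraries, so the 7 differences are a description and not independent repeats.

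**Figure D1:**
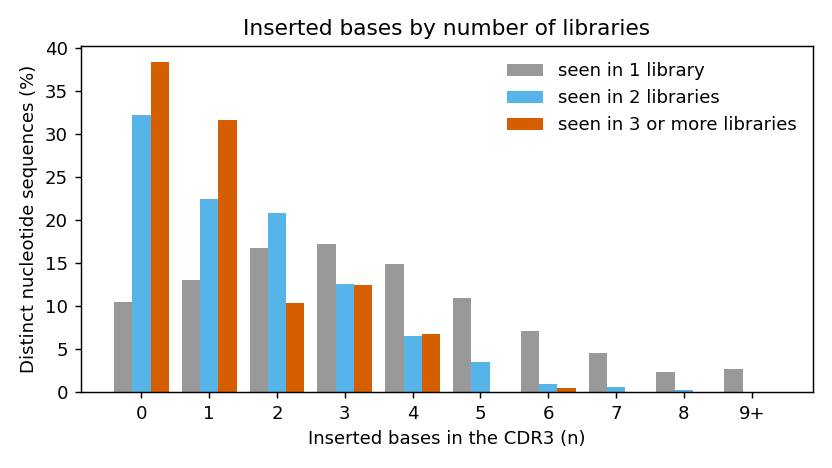
Distribution of inserted bases in the CDR3 (horizontal axis, number of bases, 9+ for 9 or more) as a percent of distinct nucleotide sequences (vertical axis), for chains seen in 1 library (grey), 2 libraries (blue) and 3 or more libraries (orange). Private sequences peak at 3 inserted bases (17.2%), whereas public sequences are most often without any (32.2% in 2 libraries and 38.3% in 3 or more).

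Sharing was mostly at the level of the protein. Of the 745 public chains, 589 (79.1%) were read in at least 2 different nucleotide sequences, and 545 (73.2%) had no nucleotide sequence in common between libraries. Of the 714 private chains found in at least 2 cells of their library, 86 (12%) had more than 1 nucleotide sequence. Cells of a clone share a nucleotide sequence, whereas cells of a public chain come from different libraries by the rule. The shares of 79.1% and 12% are therefore not a like comparison. Alpha chains were not used by the rule. Of 1584 combinations of a public beta chain with an alpha chain, 1 occurred in 2 libraries (Y665F het replicates 1 and 2), with 1 alpha nucleotide sequence and 2 different beta nucleotide sequences.

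Segment usage of public cells departed from that of private cells. The rule matched V and J segments, so usage is a description with no test. Each public chain counts in at least 2 libraries, so the numbers of libraries below are not independent repeats. The J segment TRBJ2-7, which ends all sequences of the 2 most shared chains, was used by 28.3% of public and 19.3% of private cells and was more frequent in public cells in 7 of 7 libraries. TRBV1 (10.1% of public, 6.51% of private cells) and the joint label TRBV12-2+TRBV13-2 (12% and 7.71%) were also higher in 7 of 7. The label TRBV13-2 alone went the other way (0.641% of public, 1.86% of private cells, higher in 0 of 7), and with both labels counted together the shares were 12.6% and 9.57%, higher in 7 of 7. Public cells rarely used TRBJ1-5 (0.641%, against 2.98% of private cells) and TRBJ1-4 (3.32% against 6.52%), both lower in 7 of 7 libraries. Among V segments, TRBV29 (2.39% against 4.09%) and TRBV20 (2.16% against 3.58%) were lower in 7 of 7, and TRBV14 (1.17% against 2.96%) in 6. TRBV23 was found in 188 private cells and in none of the 1715 public cells, which allows a share of up to 0.175% for counting error alone. The joint label was given to 2293 cells and TRBV13-2 alone to 515. Whether they stand for the same segment was not tested, and 1787 cells were public when both were read as 1. For inserted bases, the joint label was matched to the germline of TRBV13-2 alone. The opposite usage of the labels is therefore not read as a difference between segments.

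The share of public cells was then compared between genotypes. Because a larger library finds more matches, each library was thinned to 2996 cells and sharing was counted again over 100 draws. Public cells made up 4.12% and 4.14% of WT libraries, 4.70%, 4.6% and 4.92% of Y665F het libraries and 5.01% and 4.90% of Y665F homo libraries. Both WT libraries lay below the other 5, while het and homo libraries overlapped. The means were 4.13% ± 0.0132 (SD, n = 2), 4.74% ± 0.164 (n = 3) and 4.96% ± 0.0725 (n = 2), and homo exceeded WT by 0.825 percentage points. The order WT, het, homo was tested by exact permutation of the libraries, two-sided, and gave p = 0.0286, where 0.00952 is the smallest p that 7 libraries allow. Adjusted over the 5 planned tests on cell shares by Benjamini-Hochberg it was 0.0714 and did not pass 0.05. The trend also did not pass without WT replicate 2 (0.513 points, exact p = 0.7), without Y665F het replicate 1 (0.513 points, exact p = 0.578) or without Y665F homo replicate 2 (0.911 points, exact p = 0.1). It did not pass either when chains had to match by nucleotide sequence (0.338 points, exact p = 0.152) or by CDR3 amino acids alone (1.57 points, exact p = 0.0762). With at least 3 libraries required it did not pass (0.179 points, exact p = 0.648), and het (0.747%) lay above homo (0.630%). Alternatives were judged by their exact p before adjustment, at which the main comparison (0.0286) was also under 0.05. The exact p was 0.00952, the smallest possible, with barcodes shared between libraries left out, with at least 2 beta UMIs and without thinning. The same p was reached with expression barcodes only and with both TRBV13-2 labels joined (0.761 to 1.14 points over these settings). With 1 barcode per beta chain it was 0.0286, as in the main comparison (0.669 points).

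**Figure D2:**
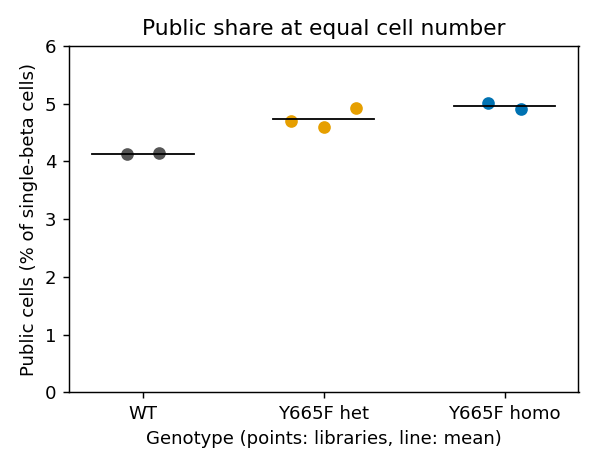
Public cells as a percent of cells with a single beta chain (vertical axis) in each of 7 libraries after thinning to 2996 cells, by genotype (horizontal axis). Points are libraries, which all share chains with each other, and lines are means of 4.13% (WT), 4.74% (Y665F het) and 4.96% (Y665F homo), with both WT points below all others.

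No difference in sharing was detected between pairs of libraries of the same genotype and of different genotypes. At equal cell number, the 5 pairs within a genotype shared 24.7 chains on average (19.2 to 28.9) and the 16 pairs between genotypes 25.0 (19.6 to 32.5). The difference of -0.249 chains did not pass when libraries were exchanged between genotypes (two-sided exact permutation p = 0.924, adjusted p = 0.924). The WT pair was the lowest of all (19.2). Pairs of a WT and a Y665F library shared 19.6 to 27.1 chains, and pairs of a het and a homo library 21.8 to 32.5. Both kinds count as between genotypes, so this test does not address which genotypes were paired.

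The absence of inserted bases was then followed over the genotypes, a comparison chosen after the data were seen. Tests are given only over all cells with a single beta chain, a group that does not depend on sharing, and adjusted p-values are over the 18 exact tests added in this way. Of distinct sequences, 9.60% ± 0.517 in WT (SD, n = 2), 12.6% ± 0.611 in Y665F het (n = 3) and 13.9% ± 0.553 in Y665F homo (n = 2) had no inserted base. The exact permutation p for this order was 0.00952, the smallest possible (adjusted p = 0.0286), and it stayed at the smallest possible p without each library in turn (0.0222 to 0.0333). The mean number of inserted bases over the same sequences did not pass (exact permutation p = 0.0762, adjusted p = 0.105, and 0.0333 to 0.233 unadjusted without each library in turn, 0.0333 being without Y665F homo replicate 1). For public and private cells, which the rule separates by sequence, the shares are a description, and libraries were not thinned for them. In public cells the share was 29.0% and 31.5% in WT libraries, 34.6%, 41.8% and 37.2% in het libraries, and 38.6% and 40.4% in homo libraries, with means of 30.3%, 37.8% and 39.5%. Both WT libraries were lowest, and the highest value was in het replicate 2. In private cells the means were 8.46%, 11.0% and 12.2%.

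Cells were next divided by coreceptor, since mature T cells recognize either class I MHC with CD8 or class II MHC with CD4. A cell was gated CD8 if it had a UMI of Cd8a or Cd8b1 and none of Cd4, and CD4 in the opposite case. Among all CD8-gated cells with a single beta chain, 9.15% ± 0.382 of WT, 13.1% ± 0.835 of het and 15.6% ± 0.827 of homo sequences had no inserted base (exact permutation p = 0.00952, adjusted p = 0.0286). In the CD4 gate the shares were 10.7% ± 0.00901, 12% ± 1.81 and 11.2% ± 0.739, and the order did not pass (exact permutation p = 0.876, adjusted p = 0.876). How far the CD8 gate lay above the CD4 gate was tested as well. This difference was -1.56 points in WT, 1.16 in het and 4.48 in homo (exact permutation p = 0.00952, adjusted p = 0.0286), and like the CD8 gate it kept the smallest possible p without each library in turn.

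Public cells of these gates are again given with no test. Among CD8-gated public cells, 32.1% and 33.0% of WT sequences had no inserted base, against 37.3%, 43.8% and 37.9% in het, with 42.6% and 44.8% in homo. WT did not overlap with either other genotype. In CD4-gated public cells the values were 40% and 42.9% in WT, 36.2%, 50% and 30% in het, with 23.5% and 31.6% in homo, from only 10 to 47 sequences per library. The means were 32.6%, 39.7% and 43.7% in the CD8 gate and 41.4%, 38.7% and 27.6% in the CD4 gate. Private cells gave 7.90%, 11.4% and 13.5% in the CD8 gate and 8.87%, 10.4% and 9.91% in the CD4 gate. These shares read distinct sequences, so large clones did not weigh more than single cells.

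**Figure D3:**
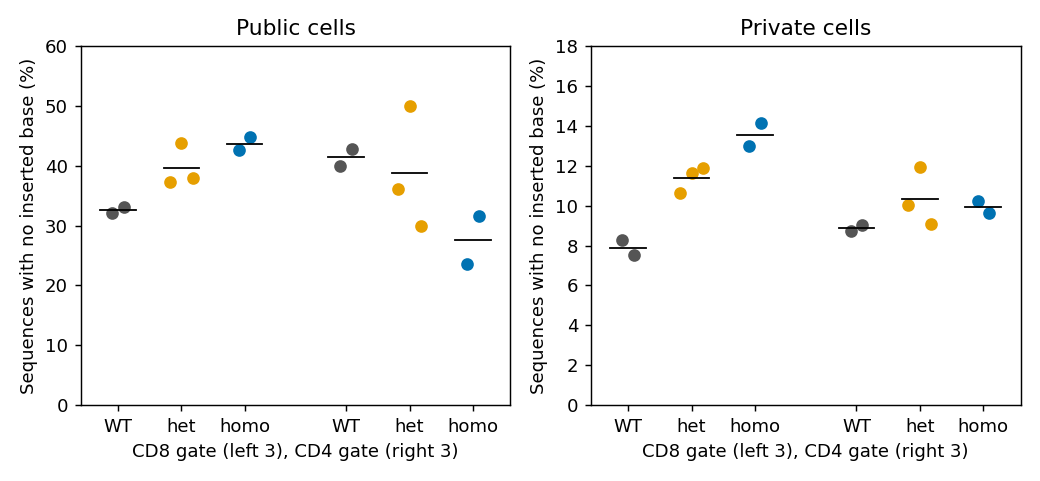
Percent of distinct CDR3 nucleotide sequences with no inserted base (vertical axes, of different range) in public cells (left panel) and private cells (right panel), by genotype and by CD8 or CD4 gate (horizontal axis). Points are libraries and lines are means. In the CD8 gate of public cells the means are 32.6%, 39.7% and 43.7% for WT, het and homo, and in the CD4 gate 41.4%, 38.7% and 27.6%.

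Expression was joined by barcode to the library of the same genotype and replicate number. Of barcodes that had 200 genes or more and no more than 10% of UMIs from mitochondrial genes, 1605 were public cells (93.6% of all public cells) and 25329 private cells (93.5%). Depth differed widely between libraries and little between classes, with medians from 438 to 3562.5 UMIs per cell in public and from 430 to 3497 in private cells. Public cells were T cells by their markers. In counts per 1000000 UMIs of the class in a library (CPM), the CD3 subunit genes Cd3d, Cd3e and Cd3g measured 778 to 964, 636 to 804 and 572 to 734 CPM in the libraries, and Trac, the constant region of the alpha chain, 168 to 318. The myeloid genes Lyz2 and S100a8 and the natural killer gene Ncr1 had 0 UMIs in public cells and Trdc, the constant region of the delta chain, measured 0 to 9.71 CPM.

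The share of CD8 cells was compared first. Of gated public cells, 70.9% and 71.9% were CD8 in WT, 68.3%, 81.7% and 88.0% in het, with 86.1% and 83.1% in homo. The private cells of the same libraries gave 73.7% and 71.7%, 69.1%, 76.2% and 87.9%, and 90.8% and 79.0%. Public cells were higher in 4 of 7 libraries, by 0.211 ± 3.6 points on average (SD, n = 7), and an exact sign-flip permutation test did not pass (p = 0.844, adjusted p = 0.924, smallest possible 0.0156). When chains had to match in CDR3 amino acids alone, without V and J, the difference was 2.08 points (exact p = 0.0469, not adjusted). All these shares leave out cells in neither gate. Such cells were fewest in het replicate 1 (21.03% of public cells) and most frequent in het replicate 3 (64.7%). These libraries had the highest and lowest median depth of public cells (3562.5 and 438 UMIs). They also had the lowest and highest CD8 share of gated public cells (68.3% and 88.0%). The part of depth in the CD8 share was not tested, so it is not read as the composition of all public cells.

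Foxp3, the factor that defines regulatory T cells, was seen in 6.21% and 2.38% of WT public cells, 9.35%, 4.44% and 1.28% in het, with 1.89% and 2.07% in homo. These values overlapped between genotypes. The mean share of 3.95% in public cells was 0.413 ± 1.99 points above private cells, higher in 3 of 7 libraries (exact sign-flip permutation p = 0.594, adjusted p = 0.924). Pooled, a Foxp3 UMI was present in 3.68% of public cells, at a median of 1061 UMIs, in 3.47% of private cells, at a median of 1067, and in 0.190% of 7882 barcodes without a TCR that carried B-cell markers, at a median of 884. In the same B-marker barcodes, 0.596% had a Cd8a or Cd8b1 UMI and 0.140% a Cd4 UMI, against 43.6% and 12.9% of public cells. Libraries differed in depth. With cells thinned to 250 UMIs, Foxp3 was seen in 2.82% and 0% of WT public cells, 2.80%, 0.556% and 0.873% in het, with 0.385% and 1.66% in homo. Public cells were then higher than private cells in 4 of 7 libraries.

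The invariant alpha chain of natural killer T cells (TRAV11 or TRAV11D with TRAJ18) was found in 0 of 1715 public cells, which allows up to 0.175%, and in 19 of 27085 private cells (0.0701%). The private share lies under that limit, so a difference was not detectable at this depth. All 7 libraries had 0 in public cells and at least 1 in private cells, which alone sets the sign-flip result at the smallest possible exact p of 0.0156 (adjusted p = 0.0714).

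Clone sizes were compared because expanded clones add cells with like expression. A clone was 2 or more cells of a library with the same beta and alpha nucleotide sequences. Of the public cells with an alpha chain, 2.68% and 0% in WT, 1.11%, 9.15% and 6.05% in het, with 2.33% and 8.45% in homo belonged to a clone. The private values were 1.34% and 1.66%, 0.827%, 7.23% and 6.36%, and 1.03% and 1.61%. Public cells were higher in 5 of 7 libraries, by 1.39 ± 2.69 points, which did not pass (exact sign-flip permutation p = 0.25, adjusted p = 0.265). Without Y665F homo replicate 2, which held the highest difference, it was 0.479 points.

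Expression of public cells was close to that of private cells, with a small set of exceptions. Public cells had more RNA of Ccl5, a chemokine of memory and effector T cells, of Itgb1, the integrin beta 1 chain, and of Il2rb, the receptor chain shared by interleukins 2 and 15. They had less of Egr1 and Jun, transcription factors induced early after TCR stimulation. Counts were summed per library and class and fitted with the edgeR quasi-likelihood test, with library as a block and Benjamini-Hochberg adjustment over 8198 genes. V, D and J segment genes were left out because the rule had matched them. Of the 8198 genes, 10 passed 0.05 (0.122%), 7 higher (0.0854%) and 3 lower (0.0366%) in public cells, and 420 had an unadjusted p under 0.05. A log2 fold change over 1 was seen in 2 of the called genes (0.0244%). DESeq2 called 2.

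Ccl5 measured 286 and 189 CPM in public cells of WT, 1351, 873 and 1094 in het, with 1781 and 1973 in homo. In private cells of the same libraries it was 187 and 146, 808, 605 and 1085, and 1509 and 1723. Public cells were higher in 7 of 7 libraries, although the gap in het replicate 3 was small. The log2 fold change was 0.44 (SE 0.05, edgeR adjusted p = 9.71e-11), and it passed without each library in turn and in all other settings but that without a library block, where the spread between genotypes enters the error.

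Itgb1 measured 105 and 75.2 CPM in public cells of WT, 109, 110 and 143 in het, with 113 and 129 in homo. Private values were 73.8 and 61.2, 70.5, 64.4 and 87.2, and 80.8 and 87.4. Public cells were higher in 7 of 7 libraries, by 0.59 on the log2 scale (SE 0.10, edgeR adjusted p = 0.000602), and without WT replicate 2 the adjusted p was 0.0840.

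Il2rb measured 166 and 102 CPM in public cells of WT, 263, 232 and 233 in het, with 266 and 230 in homo, against 109 and 112, 196, 146 and 159, and 216 and 182 in private cells. Public cells were higher in 6 of 7 libraries, WT replicate 2 being the exception. The log2 fold change was 0.41 (SE 0.08, edgeR adjusted p = 0.00165), which did not pass without Y665F het replicate 2 or without Y665F homo replicate 2 (adjusted p up to 0.138). 5830411N06Rik, a gene without an established role, was at low counts, with 69 UMIs in public cells, and rose by 1.16 (SE 0.23, edgeR adjusted p = 0.00534). It was higher in 6 of 7 libraries and was not called without Y665F het replicate 1 or without Y665F homo replicate 2. Its reads may be shared with related scavenger receptor genes such as Cd163l1.

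Jun was lower in public cells of 7 of 7 libraries. It measured 211 and 320 CPM in WT, 235, 198 and 287 in het, with 234 and 297 in homo, against 277 and 343, 288, 261 and 300.04, and 304 and 392 in private cells. The log2 difference was -0.27 (SE 0.06, edgeR adjusted p = 0.0457). Egr1 was lower in 6 of 7 libraries, het replicate 3 being the exception (-0.46, SE 0.11, edgeR adjusted p = 0.0448). Both calls were close to the threshold. With each library left out in turn, Jun was called in 1 of 7 fits and Egr1 in 2 of 7, and DESeq2 called neither.

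**Figure D4:**
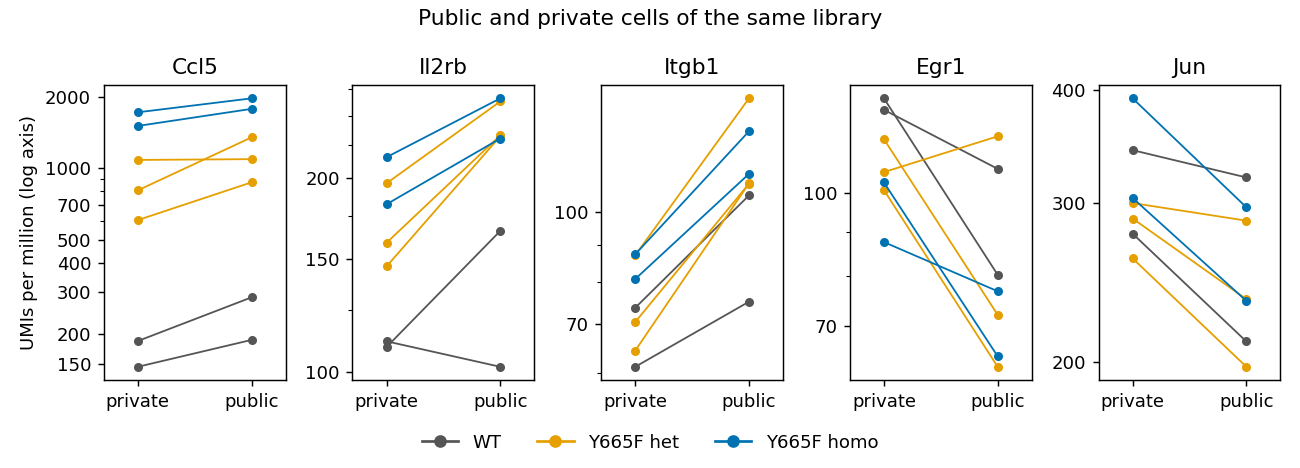
Expression of 5 genes in private and public cells (horizontal axes) of the same library, in CPM (vertical axes, log scale, of different range), with a line joining the classes of each of 7 libraries, coloured by genotype. Ccl5 and Itgb1 rise and Jun falls from private to public in 7 of 7 libraries, and Il2rb rises and Egr1 falls in 6 of 7.

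Xcl1, a chemokine of CD8 and natural killer cells (0.99, SE 0.20, adjusted p = 0.00561), Ccl4, a chemokine of effector T cells (1.05, SE 0.25, adjusted p = 0.0471), and Gm26917 (0.20, SE 0.05, adjusted p = 0.0448) were also called by edgeR but had that sign in 5, 5 and 4 of 7 libraries. Gm26917 holds ribosomal RNA-like sequence, and its counts are uncertain. Each call was lost in at least 3 of the 7 fits that left out 1 library. Ccl4 and Gm26917 fell outside the rule for named genes and are named after their values were seen.

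The gene lists showed the same few members. They were read against the 0.0854% and 0.0366% of all genes called higher and lower and an all-gene median log2 fold change of 0.00. Of 12 memory or effector genes, 11 were tested, 3 rose (Ccl5, Il2rb and Xcl1) and none fell, with a median of 0.18. Among the others, Ly6c2 (0.16), Cxcr3 (0.20) and Eomes (0.18) did not pass, nor did Cd44 (-0.12), a marker of antigen-experienced T cells. Of 8 genes that follow the strength of TCR signals, 7 were tested and 1 fell (Egr1), with a median of -0.14. Cd5, an inhibitor of TCR signals whose level follows them, was at -0.16 (adjusted p = 0.935). Of 8 interferon-induced genes, all tested, 7 had a negative value, with a median of -0.26, among them Isg15 (-0.41) and Ifit1 (-0.52), which did not pass.

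Of 14 STAT5 target genes, 11 were tested and 1 rose (Il2rb), with a median of 0.07, and Bcl2, which protects from cell death, was higher in 7 of 7 libraries at 0.14 without passing (adjusted p = 0.956). None of the 8 naive T-cell genes (median -0.01), the 6 regulatory T-cell genes (-0.05), the 6 T-cell genes (-0.02), the 4 CD8 genes (0.08) or the 4 CD4 genes (0.01) passed. Nor did any of the 4 proliferation genes (0.17), of 3 invariant natural killer T genes tested (0.09), of 4 B-cell genes tested (0.05) or the 1 myeloid gene tested (0.24). No gamma-delta, neutrophil or natural killer gene had enough counts. Stat5b itself was at -0.26 and Stat5a at -0.10, neither past the threshold.

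The same comparison within the CD8 gate called 10 of 6137 genes (0.163%), 9 higher (0.147%) and 1 lower (0.0163%), with 313 at an unadjusted p under 0.05 and 3 calls by DESeq2. In 3 called genes (0.0489%) the log2 fold change was over 1. Ccl5 was higher in 7 of 7 libraries (log2 fold change 0.44, edgeR adjusted p = 2.48e-15), and Il2rb in 7 of 7 (0.46, adjusted p = 0.000347). Itgb1 (0.75, adjusted p = 0.000151) and 5830411N06Rik (1.12, adjusted p = 0.00678) were higher in 6 of 7. With 1 library left out, Ccl5 was called in 7 of 7 fits, Il2rb and Itgb1 in 5 of 7 and 5830411N06Rik in 3 of 7. Il2rb was lost without Y665F het replicate 2 or homo replicate 2, and Itgb1 without WT replicate 2 or Y665F homo replicate 1. S100a6, a calcium-binding protein gene of activated and memory T cells, measured 0 and 42.7 CPM in CD8-gated public cells of WT, 134, 73.5 and 123 in het, with 166 and 265 in homo. Private values were 23.6 and 31.6, 62.2, 46.4 and 43.4, and 76.8 and 109, so WT replicate 1 was the exception to its rise (1.02, SE 0.14, edgeR adjusted p = 5.16e-09), which was lost without Y665F homo replicate 1 (adjusted p = 0.0682). AY036118, another ribosomal RNA-like transcript with uncertain counts, was called at 0.17. Cd74, the MHC class II invariant chain of B cells, was lower (-0.39, adjusted p = 0.0377) in 4 of 7 libraries only. Xcl1 (1.04) and 1700025G04Rik (0.78) were higher in 4 and 5 of 7. Cd74, Gm26917 (0.28) and 1700025G04Rik are named after their values were seen, and AY036118, Cd74, Xcl1 and 1700025G04Rik were each lost in 3 or more of the 7 fits without 1 library.

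Within the CD4 gate, with 10 to 53 public cells per library, 959 genes could be tested and 2 passed (0.209%), both lower. Hmgb2, a chromatin protein gene raised in dividing cells, measured 115 and 253 CPM in public cells of WT, 82.2, 93.7 and 0 in het, with 0 and 135 in homo, against 196 to 326 in private cells. It was lower in 7 of 7 libraries (-1.07, edgeR adjusted p = 0.000959), and the adjusted p rose to as much as 0.611 when Y665F het replicate 1, het replicate 2 or homo replicate 2 was left out. The other gene was AY036118 (-0.42, lower in 5 of 7). Of genes tested in this gate, 46 had an unadjusted p under 0.05, and DESeq2 called 0.

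Ccl5 was examined by the number of inserted bases, after the data were seen. The share of cells with a Ccl5 UMI ran from 3.4% to 27.6% over the libraries in public cells and from 3.85% to 24.0% in private cells, with a difference of 3.62 ± 3.24 points, higher in 6 of 7 libraries (exact sign-flip permutation p = 0.0313, adjusted p = 0.0511, which did not pass). In B-marker barcodes it was 0.133% to 1%. Among cells with at least 1 inserted base, Ccl5 was higher in public than in private cells in 7 of 7 libraries, by 208 ± 173 CPM (exact p = 0.0156, adjusted p = 0.0352). Among cells with no inserted base it was higher in 2 of 7, with a difference of -269 ± 413 CPM (exact p = 0.141, adjusted p = 0.171). The difference between these differences was not tested.

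The number of inserted bases moved with Ccl5 in private cells too. Private cells with no inserted base had 1536 ± 1043 CPM of Ccl5 (SD, n = 7), against 782 ± 552 in those with at least 1, and were higher in 7 of 7 libraries (exact p = 0.0156, adjusted over 8 genes 0.0417). Il2rb was likewise higher (236 ± 62.3 against 152 ± 37.8 CPM) in 7 of 7, with the same exact p of 0.0156 and adjusted p of 0.0417. For Xcl1 (ratio 1.34), 5830411N06Rik (2.23), Itgb1 (1.10), Egr1 (0.849) and Jun (0.977) the comparison did not pass (adjusted exact p between 0.125 and 0.594). Ccl5 and Il2rb thus also differed in private cells by inserted bases, in the same direction as between public and private cells, and the part of inserted bases in the public difference was not tested.

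Last, public cells were compared between genotypes, over libraries. Public cells of Y665F mice had more RNA of Ccl5, of Ly6c2, a surface protein of memory-type CD8 cells, of Il2rb and of Bcl2. Of 5085 genes, 21 passed in Y665F homo against WT (0.413%), 20 higher (0.393%) and 1 lower (0.0197%), and 26 in Y665F het against WT (0.511%), 17 higher (0.334%) and 9 lower (0.177%). Of the called genes, 17 (0.334%) in homo and 23 (0.452%) in het had a log2 fold change over 1 in size. At an unadjusted p under 0.05 there were 452 and 404 genes, and DESeq2 called 10 and 1. Both comparisons share the WT libraries. In private cells, which were more numerous, 281 of 10350 genes passed in homo and 160 in het. Without TMM scaling, which moved the median of all genes from 0.01 to -0.10 in both, 17 were higher and 8 lower in homo, and 11 higher and 9 lower in het. The counts rested on few libraries. In homo they ran from 4, without WT replicate 2, to 38, without WT replicate 1, and with either homo library left out they were 13. In het they ran from 2, without het replicate 1, to 44, without WT replicate 1. They were 7 without WT replicate 2, 10 without het replicate 2, 17 without het replicate 3 and 13 without homo replicate 1.

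Ccl5, with the levels given above, did not overlap between the 3 genotypes. It was higher by 3.14 on the log2 scale in homo (SE 0.22, edgeR adjusted p = 1.13e-12) and by 2.38 in het (SE 0.21, adjusted p = 9.27e-10), and these calls held without each library and in every setting run. Private cells gave 3.35 and 2.39, and the difference between public and private cells in the homo effect was -0.25 (adjusted p = 0.996).

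Ly6c2 measured 437 and 213 CPM in WT, 661, 718 and 592 in het, with 871 and 768 in homo, with log2 differences of 1.5 (SE 0.23, edgeR adjusted p = 0.000137) and 1.22 (SE 0.21, adjusted p = 0.00135). Il2rb, a STAT5 target, rose by 1.06 in homo (adjusted p = 0.0379) and 1.09 in het (adjusted p = 0.00546), from the levels given above. For both genes the WT libraries lay below all others. Without WT replicate 2 the adjusted p of Ly6c2 was 0.0875 in homo and 0.310 in het. Il2rb was called in 1 of 7 homo fits and 3 of 7 het fits with 1 library left out, and in homo only the fit without WT replicate 1 called it.

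Bcl2 measured 186 and 180 CPM in WT, 302, 288 and 278 in het, with 476 and 311 in homo, again without overlap, with differences of 1.13 (adjusted p = 0.00393) and 0.79 (adjusted p = 0.0478). The homo call was lost without WT replicate 2 or Y665F homo replicate 1, and the het call in 6 of 7 fits without 1 library. Pim1, a kinase gene and STAT5 target, measured 105 and 80.1 CPM in WT, 148, 93.5 and 215 in het, with 226 and 318 in homo. It rose in homo (1.78, SE 0.28, adjusted p = 0.000234) and did not pass in het (0.73, adjusted p = 0.383). Its homo call was lost without WT replicate 2 or Y665F homo replicate 2 (adjusted p up to 0.234). In private cells the homo difference of Pim1 was 0.91, and the difference of 0.89 between the classes did not pass (adjusted p = 0.419). Plac8, found in effector lymphocytes, measured 85.3 and 43.7 CPM in WT, 108, 90.8 and 179 in het, with 347 and 175 in homo (2.11 in homo, adjusted p = 0.000234). It is named after its values were seen, and was called in homo without each library in turn.

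**Figure D5:**
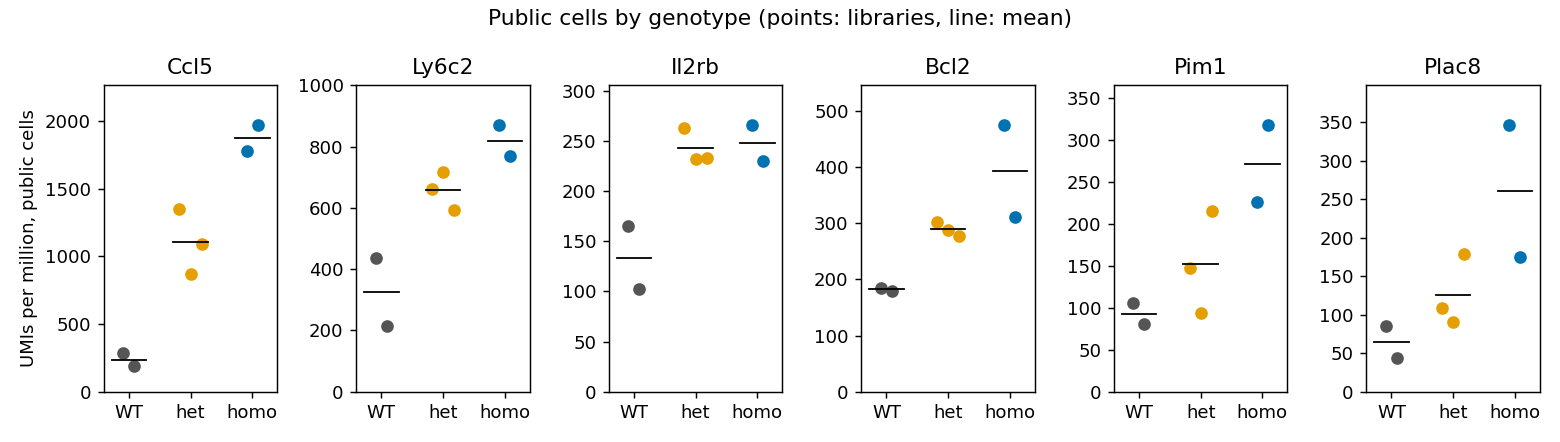
Expression of 6 genes in public cells, in CPM (vertical axes, linear from 0, of different range), by genotype (horizontal axes), with a point for each of 7 libraries and a line at the mean. Ccl5 runs from 189 and 286 in WT to 1781 and 1973 in Y665F homo, and WT libraries lie below all others for each gene but Pim1, where het replicate 2 (93.5) falls between them.

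The largest fold changes were in genes of few molecules. Cd163l1, a scavenger receptor gene of lymphocytes, had 0 UMIs in public WT cells, 56 in het and 19 in homo. With a floor of 3 counts over the WT group, it was at least 9.43-fold higher in homo and at least 8.78-fold higher in het. Gzmm, a granzyme gene of cytotoxic cells, had 2 UMIs in WT, 31 in homo and 55 in het, ratios of 23.1 (95% counting interval 5.87 to 199) and 12.9 (3.42 to 110).

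Ccl4 had 2 UMIs in WT and 42 in homo, a ratio of 31.3 (8.14 to 267), with 37 of the 42 in homo replicate 2, and the call was lost without that library (adjusted p = 0.501). Xcl1 had 5 UMIs in WT, 26 in homo and 69 in het, ratios of 7.75 (2.93 to 25.8) and 6.49 (2.65 to 20.6). In het, Samd3 had 43 UMIs against 1 in WT (ratio 20.2, 3.44 to 817) and 5830411N06Rik 48 against 3 (7.53, 2.43 to 37.8). Intervals cover counting error only. Each of these genes was called by edgeR (adjusted p between 0.000137 and 0.0448), and leaving out 1 library ended the call of each in at least 1 fit.

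The remaining gene named for its rise in homo was Ifitm10 (2.49, adjusted p = 0.00144; 0.0605 without WT replicate 2), and the only gene that fell was Stk17b, a kinase gene linked to apoptosis, which measured 452 and 505 CPM in WT and 226 and 251 in homo (-0.89, adjusted p = 0.0293). Its call was lost in 4 of 7 fits without 1 library. Of the 12 memory or effector genes, 9 were tested and 5 rose in each comparison (Ccl5, Ly6c2, Il2rb, Xcl1 and Nkg7), with medians of 1.31 in homo and 1.09 in het. Of all genes tested, 0.393% were called higher in homo and 0.334% in het, and the all-gene medians were 0.01 in both. The homo call of Xcl1 held in 2 of the 6 fits without 1 library that tested it, and that of Il2rb in 1 of 7. Of the 14 STAT5 targets, 8 were tested and 3 rose in homo (Pim1, Bcl2 and Il2rb, median 0.43) and 2 in het (Bcl2 and Il2rb, median 0.69), while Cish, an early STAT5 target, was at -0.02 and 0.48 without passing.

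Nkg7 was the only one of 4 CD8 genes to pass in either comparison (0.91 in homo, 0.76 in het). Klf2, a factor that keeps T cells in circulation, was the only naive T-cell gene to pass, and rose in homo by 0.85 (adjusted p = 0.0170). Without 1 library, Nkg7 was called in 4 of 7 homo fits and 2 of 7 het fits, and Klf2 in 3 of 7 homo fits. No regulatory T-cell, CD4, TCR-signal, interferon or proliferation gene passed in either. Stat5b was at -0.26 in homo and -0.38 in het and Stat5a at -0.26 and -0.54, none past the threshold. The CD8 share of gated public cells was 70.9% and 71.9% in WT, 68.3%, 81.7% and 88.0% in het, with 86.1% and 83.1% in homo. With cells thinned to 250 UMIs it was 76.9% and 81.0%, 80.9%, 91.2% and 85.7%, and 90.9% and 87.5%. It was not tested between genotypes, and its part in these differences was not tested.

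The 9 genes lower in het were mostly of B cells. Named by the rule were Igkv1-110, Iglc3 and Iglc2 of the immunoglobulin light chains, Cd79a of the B-cell receptor and H2-Eb1 and Cd74 of MHC class II. Igkv1-110 had 26 UMIs in WT (8 and 18 in the libraries) and 0 in het, at least 18.4-fold lower by the floor of 3 counts. It was not absent from private cells of het, which had 114, 14 and 22 UMIs, against 24 and 30 in WT. Cd74 measured 1054 and 791 CPM in WT and 89.7, 166 and 932 in het, so het replicate 3 overlapped with WT. In the fits without 1 library that tested the gene, the call of Iglc3 held in 0 of 4, of Igkv1-110 in 2 of 3, of Iglc2 in 2 of 7, of Cd79a in 6 of 7, and of H2-Eb1 and Cd74 in 5 of 7 each, lost without het replicate 1 or het replicate 2. The summed level of the B-cell marker list in public cells was 572 and 510 CPM in WT, 231, 246 and 466 in het, with 468 and 398 in homo. In private cells it was 456 and 442, 320, 325 and 467, and 393 and 364. With barcodes of 2 or more B-marker UMIs left out, 7 genes were called in het, all higher, and Cd74 was at 1.89 without passing (adjusted p = 0.651). Fewer cells of a type and less RNA per cell cannot be told apart in summed counts.

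Whether public and private cells responded differently to Y665F homo was tested as an interaction. Of 9181 genes, 3 passed (0.0327%), 1 with a higher difference in homo (0.0109%) and 2 with a lower (0.0218%), and 393 had an unadjusted p under 0.05. They were the light-chain genes Igkv8-24 and Igkv12-44 and Ube2c, a ubiquitin-conjugating enzyme gene of dividing cells, and DESeq2 called 0. None passed with B-marker barcodes left out. No member of the memory, STAT5, naive or regulatory lists passed.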

How the data were processed

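Counts and TCR tables of 7 LN libraries per assay were used, and spleen and bone marrow were not used here. The deposited expression files hold UMI counts per gene and barcode, and the deposited TCR tables the contigs with their UMI counts, both made by the authors with Cell Ranger and mm10. The submitters' processing notes give Cell Ranger 5.0 and Seurat 4.0, while the study's methods give another version of each. The labels name a 3′ kit and the methods a 5′ kit. The TCR tables had between 3255 and 6524 barcodes per library, of 31147 in all, of which 1612 with more than 1 productive beta chain and 735 with none were left out. Expression libraries had 4613 to 9220 barcodes and 2621583 to 16101373 UMIs.

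Inserted bases were those left after matching each CDR3 to the V segment from its start, the J segment from its end and the longest D match between. No smallest length was set for a D match, so inserted bases can undercount added bases. Groups were read from the sample titles. For each library, the counts of public and of private cells were added up, and these sums were tested with edgeR 4.0.16 (limma 3.58.1, R 4.3.3; TMM, filterByExpr, adjusted p under 0.05), with DESeq2 1.42.0 as an alternative. Levels are CPM of all UMIs of the class. Shares were tested with exact permutation tests (Python 3.11.15, SciPy 1.17.1). No doublet caller was run. The rule drops barcodes with more than 1 beta chain, and an alternative left out barcodes with 2 or more B-marker UMIs.

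Named genes between public and private cells were those called with 1 sign in at least 6 of 7 libraries (the 12 largest rises and falls), and between genotypes the 6 largest rises and falls called, together with list members and Stat5a and Stat5b. Other genes are named as chosen after their values were seen. Some items that the rule covers are not reported here. The public cells, lists and tests were chosen with earlier results of these data known. Joining the TRBV13-2 labels and the tests on inserted bases, clones and cells with Ccl5 were added after the data were seen. Alternatives were matching by nucleotide or by CDR3 amino acids alone, at least 3 libraries, at least 2 UMIs, no thinning, thinning to 250 UMIs, other scalings, filters and blocks, and leaving out each library. On simulated counts, the public against private fit recovered 91.2% of genes changed 2-fold (8 false calls, 8097 genes) and 100% of those changed 4-fold (6 false calls, 8086 genes). In public cells, homo against WT recovered 26.7% and 81.5% (2 and 7 false calls, 4738 and 4744 genes).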

Additional observations from a re-analysis of the deposited data

Results flagged for a closer look

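The difference between public and private cells differed between Y665F homo and WT for 3 genes by the edgeR interaction test. Igkv8-24 (adjusted p = 0.000726) had 7 UMIs in public cells of WT replicate 1 and 0 in those of the other 6 libraries, beside 283 in private cells of homo replicate 1. The call was lost without WT replicate 1, homo replicate 1 or homo replicate 2. Ube2c (adjusted p = 0.000726) had 28 UMIs in public cells of WT replicate 2 and 0 in WT replicate 1 and both homo libraries, and was lost without WT replicate 2, het replicate 1, homo replicate 1 or homo replicate 2. Igkv12-44 (adjusted p = 0.00695) had 9 UMIs in public cells, all in homo replicate 2, and was lost without either WT library. None of the 3 was called by DESeq2.

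The trend over genotypes in the share of sequences without an inserted base differed between the CD8 and the CD4 gate over all cells with a single beta chain. The exact permutation p of the difference was 0.00952 (adjusted p = 0.0286), with 7 libraries. This test was chosen after the data were seen.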

How the results depend on the processing

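Over results that answer a comparison, 115 values under alternatives kept their direction and side of the threshold or stayed near the reported count, 52 moved past that range, 18 changed sign, 13 fell below the threshold and 3 newly passed it, and the causes of the changes below were not tested. For exact tests this threshold was 0.05 before adjustment. With chains matched by nucleotide sequence, the rise of the public share was 0.338 points, the CD8 difference -0.328, the Foxp3 difference -1.22, and the gene counts 2 (public against private), 3 (CD8 gate), 4 (homo), 5 (het) and 1 (interaction), and AY036118 (-0.086) and Xcl1 (-0.039) turned negative in the CD8 gate. With CDR3 amino acids alone the public share rose by 1.57 points. The differences were 2.08 (CD8, under 0.05 only before adjustment for the planned tests), -0.355 (Foxp3) and -0.0409 (invariant alpha chain). With at least 3 libraries the share rose by 0.179 and the Foxp3 difference was -1.32. The difference between pairs was 0.105 without shared barcodes, 0.0828 with at least 2 beta UMIs and 0.198 with TRBV13-2 labels joined, and the CD8 difference was -0.162 without shared barcodes, -0.401 with joined labels and -0.163 at 250 UMIs. Clones by beta sequence alone gave 2.91 points (exact permutation p = 0.0313), and bases outside V and J gave -2.48.

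DESeq2 called 2, 3 and 0 genes for public against private in all, CD8 and CD4 cells, 10 in homo (2958 genes had no adjusted p), 1 in het and 0 in the interaction. Without a filter on low counts 25, 47 (homo) and 54 (het) were called. Without the library block none was called (0) in all, CD8 or CD4 cells. With receptor segments kept there were 17, and 18 in the CD8 gate. Of genes called, 2, 3 and 1 exceeded 1 on the log2 scale in all, CD8 and CD4 cells. With B-marker barcodes left out 7 were called in het and 0 in the interaction, and Cd74 was at 1.89.

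Without each library in turn, the public share rose by 0.513 to 0.911 points, the pair difference was -3.40 to 0.733, the CD8 difference -1.12 to 2.33, Foxp3 -0.262 to 0.691, invariant alpha -0.0728 to -0.0533, clones 0.479 to 1.90 and cells with Ccl5 2.82 to 4.30 points. The homo excess without inserted bases was 7.995 to 10.5 points in public and 3.88 to 4.66 in all cells. Counts of genes were 4 to 8 (public against private), 5 to 10 (CD8), 0 to 3 (CD4), 4 to 38 (homo), 2 to 44 (het) and 1 to 3 (interaction).

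With the replicate number as a block, 21 genes were called in homo and 23 in het. Same-numbered libraries correlated by -0.0426 to 0.0467 over 6 pairs in their deviations from the group means, others by -0.0467 to 0.0426 over 10. In WT and in homo, with 2 libraries each, the deviations mirror each other, so the likeness of these ranges was set in advance. This check cannot decide on pairing, and the numbers were not read as pairing.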
